A study of Mus musculus with 4 samples.

Results

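Cadherins and protocadherins were followed as a gene family in promoter arrays of the Polycomb protein Ring1B. The members were all genes whose name on the arrays is that of a Cdh, Pcdh, Celsr, Dsc, Dsg or Fat gene, and 91 of the 17649 promoters with a measurable window belonged to them. The choice used names only and no measured value. Of 108 protein-coding mouse genes whose current symbol fits the same pattern, 88 had a member, and 3 further members carry an older name, the name of a shared promoter or that of a transcribed pseudogene. The other 20 genes, among them Fat1, Fat2, Fat3 and Fat4, were not analysed here.

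Ring1B was immunoprecipitated from embryonic fibroblasts of C57BL/6 mice at embryonic day 12.5 and passage 2. One group was wild type and the other was homozygous for Phc2 L307R, a substitution in the SAM domain through which this Polycomb protein assembles into polymers. Each promoter was measured on 1 array per genotype, with the immunoprecipitate in Cy5 and input DNA in Cy3 and no dye swap. The promoters were spread over 2 array designs, with 17 members on the first and 74 on the second. There is therefore no replicate, no p-value is given, and the SD beside a value is the spread over neighbouring probes of the same array. The labels do not state how many embryos gave the cells, and genotype rests on the labels, since occupancy arrays do not show the mutation. The wild-type and Phc2 L307R arrays were scanned on different days, so scan day and genotype cannot be told apart.

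Cadherins are calcium-dependent adhesion proteins of the cell surface. Classical cadherins hold adherens junctions together through catenins, desmosomal cadherins anchor intermediate filaments, Celsr proteins act in planar cell polarity, and the clustered protocadherins give single neurons a combinatorial surface identity. Ring1B is the ubiquitin ligase of Polycomb repressive complex 1, which sits at CpG-rich promoters of developmental genes that are silent or poised, and fibroblasts are mesenchymal cells in which N-cadherin and cadherin-11 are the typical classical members and E-cadherin is typically silent.

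A promoter's level is the mean log2 ratio of immunoprecipitate over input, centred on the array median, in the window of 3 neighbouring probes with the highest mean over both genotypes. A promoter is called bound at a level of at least 1. It is called lower or higher in Phc2 L307R if it is bound in either genotype and the window differs by at least 1 while each of its 3 probes differs in that direction. The window is the best of a whole tile, so the threshold of 1 is a low one. The arrays read many cells at once, so occupancy in fewer cells and less Ring1B per cell cannot be told apart.

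The DNA just upstream of the start site is shown for the 4 members with the highest wild-type levels among the 17 that had an entry in the promoter table, all of them non-clustered protocadherins, and for the member with the lowest level, Cdh26. Each line holds the 250 bases before the annotated start, 5′ to 3′ on the gene's strand, from RefSeq on GRCm38.p6, with CpG dinucleotides in capitals. The stretches lie outside the gene, next to its first exon, at chr3:45378148-45378397 on the plus strand for Pcdh10, chr14:84443313-84443562 on the plus strand for Pcdh17, chr5:57717831-57718080 on the plus strand for Pcdh7, chr3:49757317-49757566 on the minus strand for Pcdh18 and chr2:178430265-178430514 on the plus strand for Cdh26.
Pcdh10: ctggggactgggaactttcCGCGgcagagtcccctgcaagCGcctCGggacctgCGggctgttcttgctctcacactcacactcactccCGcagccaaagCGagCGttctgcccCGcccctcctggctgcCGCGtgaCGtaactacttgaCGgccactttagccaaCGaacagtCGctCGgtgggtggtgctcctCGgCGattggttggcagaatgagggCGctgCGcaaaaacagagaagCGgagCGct
Pcdh17: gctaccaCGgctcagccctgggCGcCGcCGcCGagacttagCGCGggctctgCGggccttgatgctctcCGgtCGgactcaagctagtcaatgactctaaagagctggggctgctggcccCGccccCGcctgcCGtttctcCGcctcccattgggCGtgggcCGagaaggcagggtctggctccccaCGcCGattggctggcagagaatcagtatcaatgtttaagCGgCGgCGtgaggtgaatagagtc
Pcdh7: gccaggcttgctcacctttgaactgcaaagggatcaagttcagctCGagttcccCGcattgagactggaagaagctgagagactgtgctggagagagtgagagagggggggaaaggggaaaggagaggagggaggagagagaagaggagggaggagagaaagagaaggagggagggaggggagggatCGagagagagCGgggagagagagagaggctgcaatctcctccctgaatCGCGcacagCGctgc
Pcdh18: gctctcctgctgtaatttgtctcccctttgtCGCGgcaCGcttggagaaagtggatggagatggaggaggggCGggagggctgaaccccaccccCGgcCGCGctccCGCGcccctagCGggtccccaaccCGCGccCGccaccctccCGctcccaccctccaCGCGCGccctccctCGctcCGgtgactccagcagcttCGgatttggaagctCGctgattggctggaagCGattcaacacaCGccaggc
Cdh26: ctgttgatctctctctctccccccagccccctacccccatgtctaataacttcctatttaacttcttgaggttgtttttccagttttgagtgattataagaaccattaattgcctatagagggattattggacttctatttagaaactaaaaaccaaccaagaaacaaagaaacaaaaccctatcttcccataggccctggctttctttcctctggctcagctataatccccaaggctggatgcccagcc
Pcdh10, Pcdh17 and Pcdh18 hold 22, 21 and 23 CpG in this stretch, and of the 27025 promoters in the table, 16.3% hold at least as many as Pcdh10 and 14.7% at least as many as Pcdh18. The letters CG read the same on both strands. The Pcdh7 stretch holds 7, close to the median of 6 over the table, although its wild-type level was 2.94. Cdh26 holds 0 in this stretch. CpG number and level did not run in parallel at every member, since Cdh22 holds 30 with a wild-type level of 0.53 and Celsr2 holds 32 with 1.41. With 18.7% of members matched, no statement on CpG content is made for the family. The labels and files used here name no genome build for the array positions, so these stretches were not aligned with the probes.

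Most members had little Ring1B, and a small set had a great deal. In wild type, 21 of the 91 members (23.1%) were bound, against 45.5% of all promoters. In Phc2 L307R, 23 members (25.3%) were bound, against 39.3% of all promoters. The median level was 0.24 in wild type and 0.62 in Phc2 L307R, where all promoters had medians of 0.90 and 0.80. At the upper end the family was close to the background: 7 members reached 2 in wild type and 8 in Phc2 L307R, against 8.22% and 7.49% of all promoters. Of the 54 clustered protocadherins 4 were bound in wild type, whereas 17 of the 37 other members (45.9%) were bound in each genotype.

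No member met the rule for lower Ring1B in Phc2 L307R, where 3.02% of bound promoters did. Pcdh21 and Pcdhb14 met the rule for higher Ring1B, which 1.64% of bound promoters met. Of the 26 members bound in either genotype, as were 51% of all promoters, 18 were bound in both. Over all 8998 bound promoters, 5954 were bound in both, 2068 in wild type only and 976 in Phc2 L307R only. Dsg2, Celsr2 and Cdh13 were above 1 in wild type only, and Celsr3, Pcdh20, Pcdh21, Pcdhb14 and Pcdhga10 in Phc2 L307R only. Among these 8 genes the genotypes differed by between 0.13 for Pcdh20 and 1.11 for Pcdhb14 in size. Pcdh20 lay just under the threshold in wild type (1.00 as rounded), Cdh7 just above it (1.04), and Pcdhac1 (0.99) and Pcdhb1 and Cdh13 (both 0.98) just under it in Phc2 L307R.

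**Figure D1:**
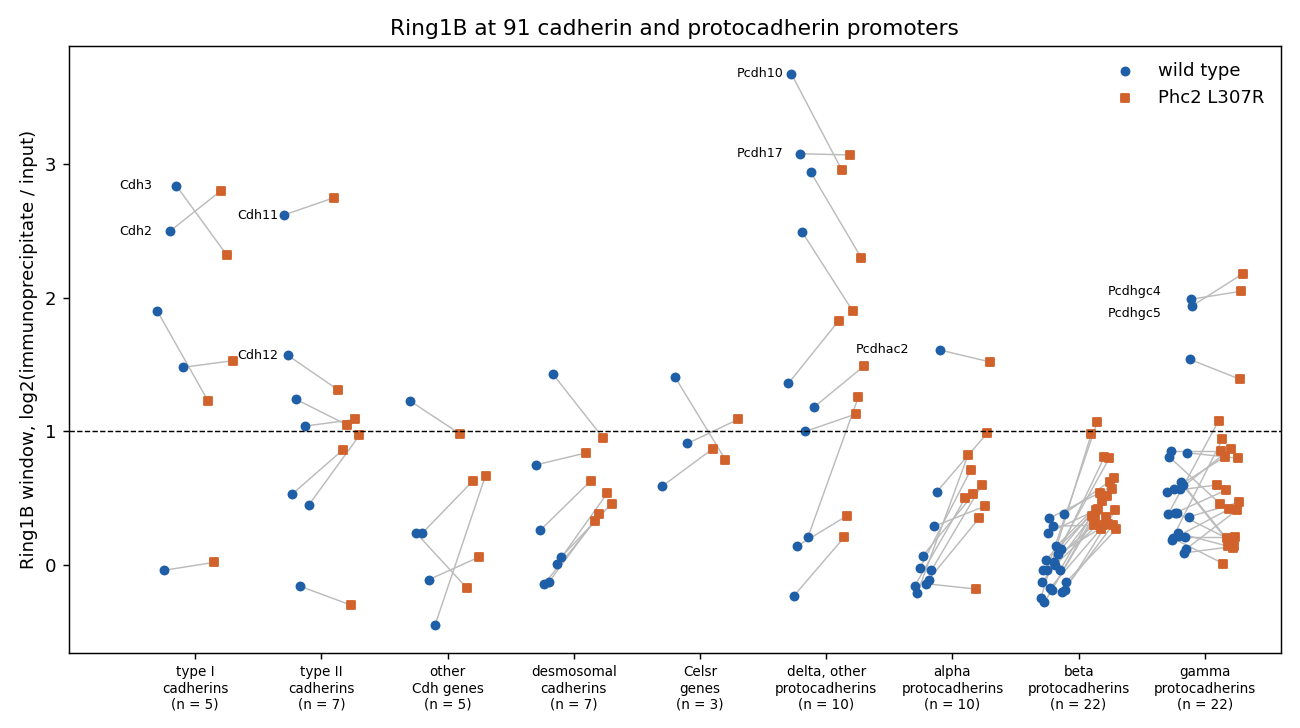
Ring1B level (log2 ratio of immunoprecipitate over input, window of 3 probes) of each of the 91 members by role group, with wild type as blue circles, Phc2 L307R as orange squares and a grey line joining the values of 1 gene. The dashed line marks the threshold of 1, which 21 members reach in wild type and 23 in Phc2 L307R, and Pcdh10 is the highest at 3.68 in wild type.

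The deposited value tables give a second set of wild-type values of unknown origin, while their Phc2 L307R values come from the same arrays as the scanner files and are no independent repeat. At the members' windows, the wild-type tables were above the wild-type scanner values at 64 of 91, by a median of 0.13. The wild-type versions differed by at least 1 at 4 members, and the genotypes differed by at least 1 at 5. Over all promoters these shares were 2.86% and 2.9%. Over all promoters, a difference of 1 was thus about as frequent between the versions of wild type as between genotypes. At the 1451 promoters at or above 2 in wild type it was more frequent between the versions, at 22.5% against 9.51% between genotypes. Among the 26 bound members the shares were 11.5% and 7.69%. With the tables, and the window chosen on them, 5 members met the rule for lower Ring1B and 0 met that for higher, where 8.25% and 0.585% of all bound promoters did. Beside the differences of the main members, the value from the tables at the same window is given.

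The non-clustered protocadherins, single-gene adhesion receptors known mainly from the developing nervous system and mesenchyme, held 4 of the 7 members at or above 2 in wild type and 3 of the 8 in Phc2 L307R. Pcdh10, whose product binds actin regulators and guides cell migration, had the highest wild-type level of the family, with 3.68 (SD 0.61 over 3 probes) in wild type and 2.96 in Phc2 L307R. Its wild-type level lay above 99.1% of all promoters. The window probes read 4.27, 3.05 and 3.72 in wild type, against 2.90, 2.66 and 3.34 in the mutant, so each probe was lower in the mutant. The difference of -0.72 (SD 0.57) stayed under the size rule, and it was -1.03 with the tables.

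On one side of the window, the Pcdh10 tile differed more between genotypes than in the window itself. The window lies at chr3:45474884-45475315 in the positions of the files. The 8 probes at higher coordinates, reaching 2.04 kb from the window's centre, averaged 3.67 in wild type and 2.24 in Phc2 L307R. The difference there was -1.43 (SD 0.39 over probes), with all 8 probes lower in the mutant. The 34 probes on the other side averaged 1.21 and 1.02. This stretch was singled out after its values were seen, and neighbouring probes read overlapping DNA fragments, so they are no independent measurements. Pcdh10 met the rule for lower Ring1B under 4 of 10 processing settings.

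Pcdh17, a delta protocadherin, had the longest run of probes at or above 1 among the members in wild type. Its window read 3.08 (SD 0.26) in wild type and 3.07 in Phc2 L307R, a difference of -0.01 (SD 0.34). Of the 47 probes tiled over 7696 bases, 46 were at or above 1 in wild type and 45 in the mutant. Of all probes with a gene name, 13.9% and 12.8% were. The longest run of Pcdh17 spanned 7185 bases in wild type and 4499 in Phc2 L307R, where the run of Pcdh10 spanned 4908. On the side of higher coordinates, 22 of 26 probes were lower in the mutant, with means of 2.34 and 1.90. The equal windows did not hold with the tables, where the difference was -1.12.

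Pcdh7 and Pcdh18 also had lower windows in the mutant that did not meet the rule. Pcdh7, a protocadherin with several cytoplasmic isoforms, read 4.17, 2.58 and 2.06 over its window in wild type, against 2.56, 2.44 and 1.89 in the mutant. The means were 2.94 and 2.30, and most of the difference of -0.64 (SD 0.84) came from 1 probe. With the tables it was -0.09. Pcdh18, another delta protocadherin, read 2.49 and 1.90, and its difference of -0.58 had a small spread over probes (SD 0.11). It was -0.24 with the tables. With the window chosen as the highest in the mutant, both signs turned, to 0.33 for Pcdh7 and 0.45 for Pcdh18, and the mean over all probes of Pcdh18 differed by -0.02.

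Pcdh1 and Pcdh8 were moderate and gave opposite answers with the 2 sets of wild-type values. Pcdh1, an epithelial protocadherin, read 1.36 in wild type and 1.83 in Phc2 L307R, a difference of 0.46 that became -0.58 with the tables. Pcdh8, which is expressed in the presomitic mesoderm and at synapses, read 1.18 and 1.49, a difference of 0.31 that became -0.90. Its probes at or above 1 numbered 8 of 39 in wild type and 16 of 39 in the mutant. No direction is given for these genes.

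Pcdh21, now called Cdhr1 and known from photoreceptor outer segments, was one of the members called higher. Its window read 0.13, 0.09 and 0.41 in wild type, against 0.59, 0.76 and 2.42 in the mutant. The difference of 1.05 (SD 0.84) rested mainly on 1 probe, the only one of 42 on the tile at or above 1 in the mutant. It was 0.53 with the tables, and -0.23 with normexp background correction, a model-based correction of the raw intensities that avoids negative values. The lowest of the group was Pcdh12, an endothelial protocadherin, with -0.23 in wild type and 0.21 in the mutant.

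**Figure D2:**
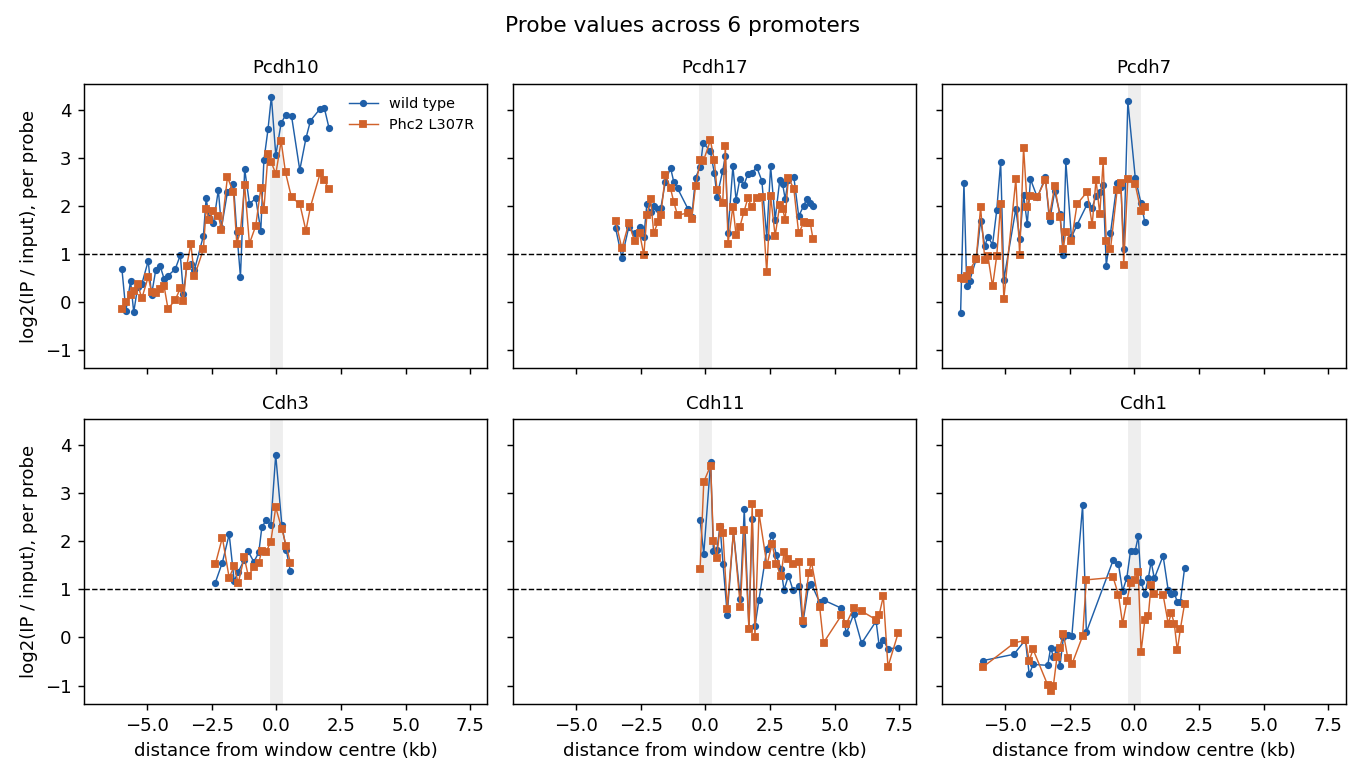
Log2 ratio of immunoprecipitate over input at every probe of 6 promoters against distance from the window's centre in kb, with wild type in blue, Phc2 L307R in orange, the window region in grey and the threshold of 1 dashed. Over the 8 right-hand probes of Pcdh10 the mean was 3.67 in wild type and 2.24 in Phc2 L307R, and over the 11 right-hand probes of Cdh1 it was 1.12 and 0.49.

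Among the classical type I cadherins, which bind beta-catenin and build adherens junctions, 4 of 5 were bound in both genotypes. Over all promoters, 5954 of 17649 were. Cdh3, P-cadherin of epithelia and placenta, read 2.35, 3.80 and 2.35 in wild type, against 1.99, 2.71 and 2.26 in the mutant. The means were 2.84 (SD 0.84) and 2.32, with a difference of -0.52 (SD 0.52) and of -0.78 with the tables. All 16 probes of its tile were at or above 1 in both genotypes, over 2956 bases.

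Cdh1, E-cadherin, the main epithelial cadherin, was lower in the mutant at every window probe. It read 1.80, 1.80 and 2.11 in wild type, against 1.14, 1.19 and 1.36 in the mutant. These are neighbouring probes of 1 array per genotype and no independent measurements. The means were 1.90 (SD 0.18) and 1.23, and the difference of -0.68 had an SD of 0.08 over the probes. It was under the size rule of 1, and -1.10 with the tables. The 11 probes from 0.40 to 1.94 kb above the window's centre averaged 1.12 and 0.49, and all 11 were lower in the mutant (mean difference -0.64, SD 0.20). The 18 probes on the other side averaged 0.16 and -0.14, and 11 were lower (mean difference -0.29, SD 0.78). The probes next to the window, at -0.29 and 0.26 kb, were in neither set. They read 1.24 and 1.15 in wild type, against 0.75 and -0.30 in the mutant. Probes at or above 1 numbered 13 of 34 in wild type and 6 of 34 in Phc2 L307R. The difference was below 0 under all 10 settings and met the rule for lower Ring1B under 1 of them.

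Cdh2, N-cadherin, which mesenchymal and neural cells typically carry, did not share that pattern in the scanner values. Cdh2 is on the second array design and Cdh1 on the first, so gene and array pair cannot be told apart in this contrast. The Cdh2 window read 2.99, 2.27 and 2.24 in wild type, against 3.07, 2.58 and 2.74 in the mutant. The means were 2.50 (SD 0.43) and 2.80, a difference of 0.30 (SD 0.21). With the tables it was -0.36, below 0 like that of Cdh1. Cdh4, R-cadherin, read 1.48 and 1.53. Cdh15, M-cadherin of muscle, was near the array median with -0.04 and 0.02.

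The genes of known E-cadherin repressors were bound as well. All 5 measured of 6 listed (Snai1, Snai2, Zeb2, Twist1 and Twist2) were bound in both genotypes, against 5954 of all 17649 promoters. Their median level was 2.31 in either genotype. Twist2, a mesenchymal transcription factor, read 2.49 and 2.70, and Snai2 read 2.25 and 1.72. None met the rule in either direction.

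The type II cadherins, which mark mesenchymal, endothelial and neural cell groups, ranged from strong to no signal. Cdh11, the mesenchymal or osteoblast cadherin, read 2.45, 1.74 and 3.66 in wild type, against 1.43, 3.24 and 3.58 in the mutant. The means of 2.62 (SD 0.97) and 2.75 differed by 0.14, far less than the spread of the probe differences (SD 1.27). Cdh12 read 1.57 and 1.31, and its probes at or above 1 numbered 15 of 37 in wild type and 9 in the mutant. Cdh24 read 1.24 and 1.05, and Cdh7 read 1.04 and 1.09, so both stayed near the threshold. Cdh8, a neural cadherin, was unbound at 0.45 and 0.97, and its difference of 0.52 (SD 0.25) was 0.70 with the tables. It was above 0 under all 10 settings, between 0.38 and 1.05, and met the rule for higher Ring1B under 1 of them. Cdh5, VE-cadherin of endothelium, was below the array median in both genotypes (-0.16 and -0.30), and none of its 30 probes reached 1.

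Of the other Cdh genes, only Cdh13, T-cadherin, which lacks a cytoplasmic tail, was bound. It read 1.23 (SD 0.26) in wild type and 0.98 in Phc2 L307R. Cdh16 and Cdh17, cadherins of kidney and intestine, both read 0.24 in wild type. Cdh26 had the lowest wild-type level of the family at -0.45 and read 0.67 in the mutant. Its difference of 1.12 (SD 0.89) was as large as those of the called genes, but it was not bound, and it turned to -0.14 with normexp correction.

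The desmosomal cadherins, expressed in stratified and other epithelia, had little Ring1B signal in these fibroblasts. Dsg2, the most widely expressed desmoglein, was bound in wild type with probes of 1.80, 1.55 and 0.94, against 0.78, 1.47 and 0.62 in Phc2 L307R. The means were 1.43 and 0.95, a difference of -0.47 (SD 0.49) and of -1.19 with the tables. Dsc2 read 0.75 and 0.84. The other 5 (Dsc3, Dsg1b, Dsg1c, Dsg3 and Dsg4) lay between -0.14 and 0.26 in wild type. They sit in the same gene cluster on chromosome 18, so they are neighbours and not separate loci.

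The Celsr genes, mammalian counterparts of fly flamingo, stayed near the threshold. Celsr2 read 0.77, 2.03 and 1.42 in wild type, against 0.88, 1.39 and 0.08 in the mutant, with means of 1.41 and 0.79. Its difference of -0.62 (SD 0.73) was -0.74 with the tables. Celsr1 read 0.59 and 0.87, and Celsr3 read 0.91 and 1.09. Among 9 measured planar polarity genes of 12 listed, 8 were bound in wild type and 4 in Phc2 L307R, against 45.5% and 39.3% of all promoters. The median difference of the bound ones was -0.14, the same as over all bound promoters. Vangl2, a core membrane protein of planar polarity, met the rule for lower Ring1B that 3.02% of bound promoters met, with 1.49 in wild type and 0.12 in the mutant (difference -1.38, SD 0.53). Its difference was -0.70 with the tables.

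The clustered protocadherins lay side by side on chromosome 18, with 10 alpha, 22 beta and 22 gamma genes measured by 1176 probes over 895 kb. In neurons, alternative promoters of these clusters are chosen at random from cell to cell, apart from the C-type genes at the ends of the alpha and gamma clusters, which are expressed more evenly. Ring1B was found at the C-type promoters and hardly anywhere else. Of 5 C-type genes, 4 were bound in both genotypes, whereas 0 of the 49 others were bound in wild type and 2 in Phc2 L307R. The shares over all promoters were 45.5% in wild type and 39.3% in Phc2 L307R. In bins of 10 probes, 4 of 117 bins reached 1 in wild type and 4 in the mutant, and all of them lay over Pcdhac2, Pcdhgc3, Pcdhgc4 and Pcdhgc5. With normexp correction, 2 gamma genes (9.09%) reached the threshold in wild type and 1 (4.55%) in Phc2 L307R, after 3 and 4 in the main setting. The shares over all promoters fell as well, to 23.9% in wild type and 13.1% in Phc2 L307R.

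The levels at these peaks differed between genotypes by less than the spread over probes. Pcdhgc4 read 2.15, 1.96 and 1.86 in wild type, against 1.89, 1.81 and 2.44 in the mutant, with means of 1.99 (SD 0.14) and 2.05. Pcdhgc5 read 2.11, 1.63 and 2.07 in wild type, against 1.97, 2.45 and 2.12 in the mutant, with means of 1.94 and 2.18. Pcdhgc3 read 1.54 (SD 0.04) and 1.39, and its window ended 728 bases from that of Pcdhgc4, so the DNA fragments of these neighbours can overlap. Pcdhac2 read 1.61 (SD 0.44) and 1.52. The 4 differences ran from -0.15 to 0.24. With the tables they were -0.08 for Pcdhgc3, -0.18 for Pcdhgc4, 0.36 for Pcdhgc5 and -0.63 for Pcdhac2. Pcdhac1, the remaining C-type gene, read 0.55 and 0.99.

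The gamma signal had a similar extent in both genotypes. With values averaged over 3 neighbouring probes, a run of 16 probes over Pcdhgc4 stayed at or above 1 from chr18:37932369 to 37935598 in the positions of the files, with wild-type and mutant means of 1.59 and 1.64. A second run over Pcdhgc4 and Pcdhgc5 covered 1707 bases in wild type and 2025 in the mutant. Over the gamma cluster as a whole, 37 of 495 probes (7.47%) were at or above 1 in each genotype. Of all probes with a gene name, 13.9% were in wild type and 12.8% in Phc2 L307R. The 19 gamma genes that are not C-type had medians of 0.39 in wild type and 0.46 in the mutant. Pcdhga10 alone among them reached 1, at 1.08 in Phc2 L307R after 0.38 in wild type.

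**Figure D3:**
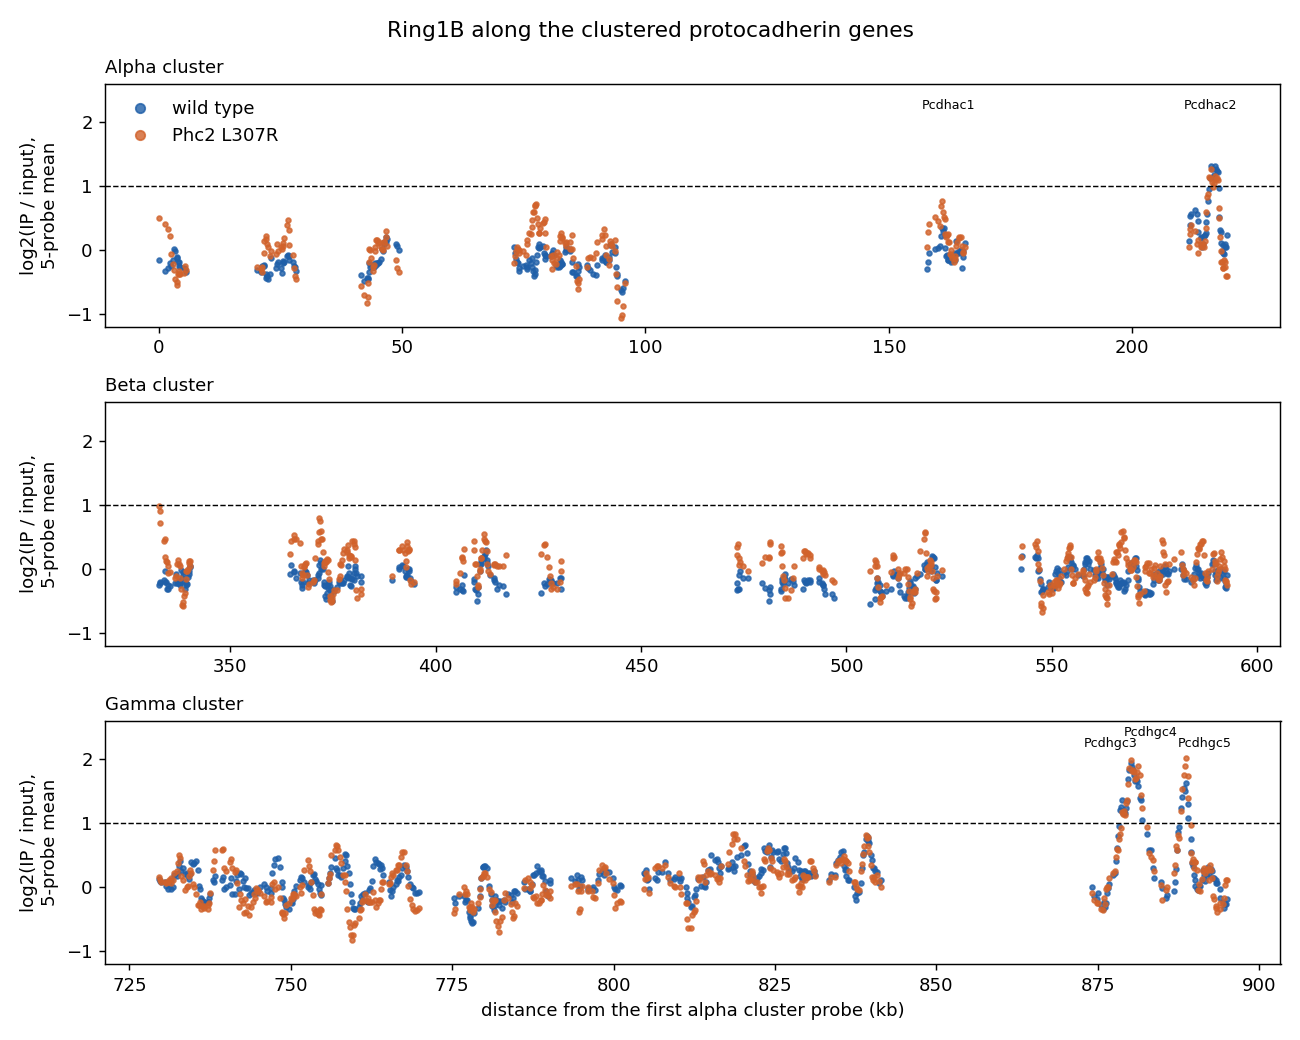
Mean log2 ratio of immunoprecipitate over input in 5 neighbouring probes against distance in kb from the first alpha probe, for the alpha, beta and gamma clusters, with wild type in blue, Phc2 L307R in orange and the threshold of 1 dashed. The peaks at Pcdhac2 and at Pcdhgc3 to Pcdhgc5 appear in both genotypes, with bins of 10 probes reaching 1.57 in wild type and 1.78 in Phc2 L307R.

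Away from the C-type genes, levels were low in both genotypes. The 22 beta genes had wild-type and mutant medians of -0.02 and 0.41, and all 22 differences were above 0, with a median of 0.44. That lean was smaller with the value tables, where 18 of 22 were above 0 and the median was 0.17. With normexp background correction, 9 of 22 (40.9%) were above 0 and the median was -0.10. All promoters also moved down, from 45.5% above 0 and a median of -0.05 to 31.9% and -0.14 with normexp. The 8 alpha genes without the C-type pair gave medians of -0.08 and 0.52 and a median difference of 0.55, and the median difference of all 10 alpha genes was 0.46, or -0.11 with normexp. The 19 gamma genes without C-type had a median difference of 0.04. Beta probes at or above 1 numbered 0 of 450 in wild type and 10 (2.22%) in the mutant. Alpha probes at or above 1 away from the C-type genes numbered 0 of 157 in wild type and 2 in the mutant. These beta and alpha counts stand against 13.9% and 12.8% of all probes with a gene name. As the sign depends on the background correction, no direction is given for the beta or alpha group.

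Pcdhb14, called higher, read -0.12, -0.17 and 0.17 in wild type, against 1.22, 1.52 and 0.47 in the mutant. The difference was 1.11 (SD 0.72), or 0.96 with the tables. It was -0.44 with normexp correction and again -0.44 in the window that was highest in wild type. Pcdhb1 read -0.25 and 0.98 and Pcdha10 read -0.21 and 0.82. Their differences of 1.22 and 1.03 passed the size of 1, but neither gene was bound. Pcdhb12, the lowest of the beta genes in wild type at -0.28, read 0.36 in the mutant, and Pcdhb7, the highest at 0.38, read 0.65.

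Differences above 0 were found mostly among members with low levels. Of the 65 members below 1 in both genotypes, 55 had a difference above 0, with a median of 0.35, against 53.3% and a median of 0.03 over all such promoters. Of the 26 bound members, 13 were above 0, with a median of 0.02, against 38.1% and a median of -0.14. The array designs differed in this: 3 of the 10 bound members on the first design were above 0, with a median of -0.55, and 10 of the 16 on the second, with a median of 0.15. Over all bound promoters, the shares above 0 were 36.2% and 40% on these designs, with medians of -0.17 and -0.11. Pcdh10, Pcdh18, Pcdh7, Cdh1, Cdh3, Celsr2 and Cdh13 are all on the first design, so their lower values come from the same pair of arrays. Over all 91 members, 68 were above 0, against 45.5% of all promoters. With normexp correction 33 (36.3%) were, with a median of -0.14, against 31.9% and a median of -0.14 over all promoters. In the window highest in wild type 45 (49.5%) were, with a median of -0.01, against 25.8% and a median of -0.24. The medians of all promoters thus moved down as well, and the members' share above 0 stayed above theirs in both settings. As the sign of the members' median depends on the setting, no direction is given for the family. From the value tables, 53 of 91 were above 0, and the median was 0.08 over all members and -0.24 over the bound ones. Of these 65 members, 48 lie in the clusters and share the same arrays and neighbourhood. Input was well above background at 90.9% of member probes in wild type and at 82.6% in the mutant, against 86.2% and 75.6% of all probes, and its part in these differences was not tested.

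**Figure D4:**
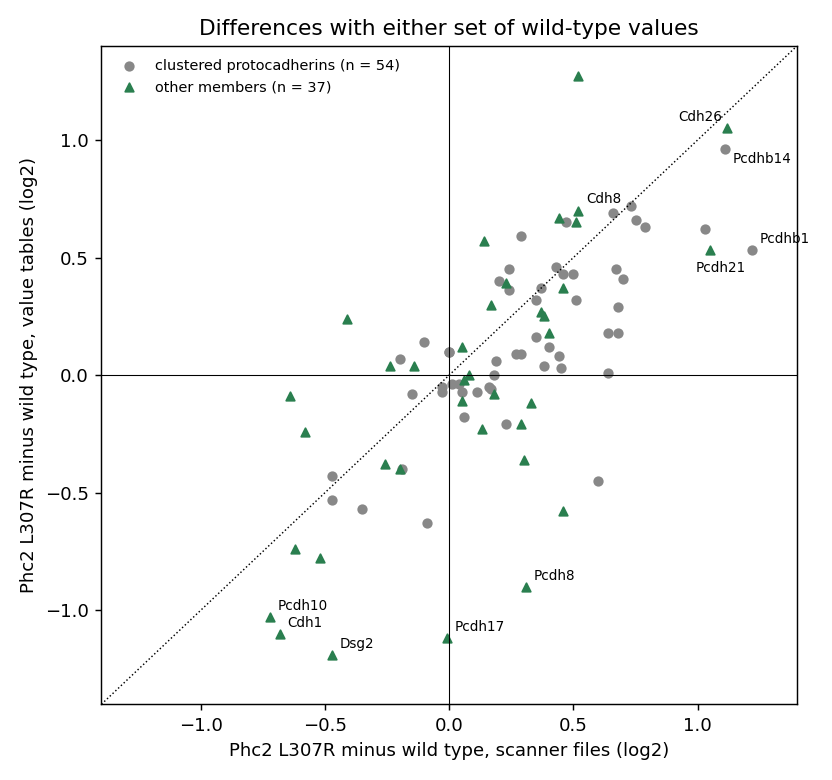
Difference between Phc2 L307R and wild type (log2) at the windows of the 91 members, from the scanner files on the horizontal axis and from the value tables on the vertical axis, with grey circles for the 54 clustered protocadherins, green triangles for the 37 other members and a dotted line of equal values. Of the members, 48 are above 0 on both axes and 18 are below 0 on both, while Pcdh17 moves from -0.01 to -1.12 and Pcdh8 from 0.31 to -0.90.

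The order of the genes was similar in the genotypes. Across the 91 members, wild-type and mutant levels had a Pearson correlation of 0.88 and a Spearman correlation of 0.69, against 0.85 and 0.82 over all promoters. Genes on a design share arrays and neighbouring genes share fragments, so these values only describe the arrays. Of the 7 members at or above 2 in wild type, 5 were lower in Phc2 L307R, with a median difference of -0.52. Over all 1451 such promoters, 1067 were lower and the median was -0.30. These genes were chosen on the wild-type value, which bears on the sign.

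Genes that work with cadherins were read in the same way, against 45.5% and 39.3% of all promoters bound in wild type and Phc2 L307R. Of 14 measured catenin and plaque genes among 17 listed, 9 were bound in wild type and 11 in Phc2 L307R, and none met the rule in either direction. Ctnnb1, beta-catenin, read 1.72 and 1.41. Of 5 measured nectin genes among 6 listed, 3 and 2 were bound, and Pvrl3, now Nectin3, read 2.10 and 1.47. Of the cadherin-domain genes outside the naming pattern, 3 of 4 measured among 6 listed were bound in each genotype, for example the calsyntenin Clstn1 at 1.64 and 1.72. Of 4 measured regulators of the clustered protocadherins among 5 listed, Rad21 was bound in wild type (1.27) and Ctcf in the mutant (1.38). In the other genotype both lay just under the threshold, Rad21 at 0.96 and Ctcf at 0.97. Their differences of -0.30 (SD 0.51) and 0.42 (SD 0.61) were smaller than the spread over probes.

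Markers of cell types were read as occupancy only, since expression was not measured here. Over all promoters, 45.5% were bound in wild type and 39.3% in Phc2 L307R. Of 9 fibroblast markers, 8 were bound in each genotype, with medians of 2.07 and 2.29. Of 6 epithelial markers 1 was bound, of 4 endothelial markers 1, and of 4 neural markers 3, in each genotype. The labelled cell type could therefore not be checked against marker expression.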

How the data were processed

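Ring1B occupancy was measured on 4 arrays of 2 designs in wild-type and Phc2 L307R fibroblasts. Per the file headers, the authors quantified spot intensity and log10 ratios of Cy5 over Cy3 in Agilent Feature Extraction 10.7.3.1, subtracting background by negative controls, detrending and scaling the dyes linearly. Value tables that were also deposited hold log10 ratios with unstated centring; their Phc2 L307R columns are the scanner ratios shifted by a constant, and the origin of their wild-type columns is unknown.

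Log2 ratios were set to a median of 0 on each array, without control and outlier spots; saturated spots were kept. Windows held 3 probes within 2000 bp. Rules of size replaced tests. Members were named by a rule: the highest in wild type, all called lower or higher, and the largest differences in each direction among bound members. The highest and lowest in wild type of each role group and fixed genes were named as well. Cdh4, Cdh7, Cdh8, Cdh12, Cdh16, Cdh17, Cdh22, Cdh24, Dsc2, Pcdh20 and Pcdhb1 were added after their values were seen. Members and lists were chosen with earlier results of these data known. Alternatives used limma 3.58.1 in R 4.3.3 and pandas 2.3.3. Code was tested on simulated data. SDs over probes measure spread within an array.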

Additional observations from a re-analysis of the deposited data

How the results depend on the processing

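No alternative supplies a replicate, and all are re-readings of the same arrays. No paired analysis was possible because each genotype has 1 array per design. Members bound in wild type numbered 6 as means over all probes and 7 at a threshold of 2. These were 6.59% and 7.69% of members, against 4.71% and 8.22% of all promoters. In Phc2 L307R, 13 members (14.3%) were bound with normexp background correction or with bright probes only, against 13.1% and 22.6% of all promoters. There 8 members (8.79%) were bound as means over all probes or at a threshold of 2, against 3.98% and 7.49%. Members called lower numbered 1 with normexp correction, with bright probes only or in the window highest in wild type (Pcdh10 each time). They numbered 3 at a 1.5-fold difference and 5 with the value tables (Cdh1, Cdh12, Dsg2, Pcdh10 and Pcdh17). In that order, these were 5.56%, 5.26%, 4.17%, 11.5% and 17.2% of bound members. Over all bound promoters the shares were 5.57%, 2.77%, 5.32%, 13.5% and 8.25%. Members called higher numbered 1 with loess or after the arrays were given equal spread, and 0 with normexp, the value tables, bright probes, windows of 5 probes, the window highest in wild type, means over all probes or a threshold of 2. They numbered 3 in the window highest in Phc2 L307R and 3 at a 1.5-fold difference. Each time this was 11.5% of bound members, against 3.46% and 6.38% of all bound promoters. With loess and with equal spread, the shares were 3.7% and 3.85% of bound members, against 1.61% and 1.1%. Under the settings that called no member higher, between 0.213% and 3.07% of all bound promoters were called. The difference of Pcdh21 turned to -0.23 with normexp. That of Pcdhb14 turned to -0.44 with normexp, -0.06 with bright probes and -0.44 in the window highest in wild type, and came to 0.00 as a mean over all probes. The cause was not tested. The median difference of the clustered genes was 0.29 over windows, 0.05 over bins of 10 probes and -0.16 with normexp, and the median of all promoters moved from -0.05 to -0.14 with normexp and to -0.12 with equal spread. The median difference of bound members, 0.02 in the main setting, ran from -0.36 with the value tables to 0.15 in the window highest in Phc2 L307R. Its sign therefore depends on the setting. These shifts were smaller than the median SD over probes at bound members (0.47), which does not measure the spread of a median over genes. For 32 named members, 261 of 320 values stayed within the SD over probes of the difference given. The sign was opposite for 55 values, from 23 members. For each member 1 value comes from the threshold of 2, which cannot change a difference and so always counts as the same. Of all 91 members, 10 were below 0 in all 10 settings, among them Cdh1, Cdh3, Celsr2, Dsg2 and Pcdh10. They also include the unbound Pcdhga3 and Pcdhgb2. In the other direction, 12 were above 0 in every setting that measured them, among them Cdh8 and Pcdhgc5.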
